A study of Oncorhynchus mykiss with 24 samples.

Results

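The genes described here encode the proteins of the mitochondrial ribosome, followed through the first days of a trout hybrid made from an Oncorhynchus mykiss (rainbow trout) egg and Salvelinus fontinalis (brook trout) sperm. They were chosen by name: every gene of the count table whose symbol starts with mrpl or mrps followed by a digit, with the symbol taken from the table itself or, for genes that carry only a locus number, from the zebrafish name in the authors' deposited ortholog table. This gave 87 of 32765 genes, of which 67 belong to the maternal O. mykiss genome (of 22773) and 20 to the paternal S. fontinalis genome (of 9992). Together they stand for 65 different proteins, and 19 of these have a gene from both species. Of the O. mykiss genes, 44 encode proteins of the large subunit and 23 proteins of the small subunit. The proteins named mrps18a and mrps30 sit in the large subunit and were counted there. All 67 O. mykiss genes were listed as protein coding in the RefSeq gene table.

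The mitochondrial ribosome makes the few proteins encoded in mitochondrial DNA, which are core parts of the respiratory chain and of the ATP synthase. Its ribosomal RNAs come from the mitochondrial genome, whereas all its proteins are encoded in the nucleus, made in the cytosol and imported. Many of them descend from bacterial ribosomal proteins and the others are found in mitochondria only. An egg is loaded with maternal mitochondria and with maternal mRNA, and the embryo's own genes are switched on later.

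Every egg or embryo was divided along its main axis. Section A holds the animal pole, on which the embryo is built, and section B the vegetal pole and the bulk of the yolk, and both were sequenced separately (TOMO-seq). The sampling times were 0 hours post fertilization (hpf), with labels that speak of eggs both before and just after fertilization, then 1 hpf, labelled as a 1-cell egg and also as early cleavage. Later samples came from 1 day post fertilization (dpf), with roughly 32 to 64 cells, and from 3 dpf, when embryos had about 1000 cells. Section A and section B were each analysed in 2 biological replicates of 0 hpf, 3 of 1 hpf, 3 of 1 dpf and 2 of 3 dpf, and 4 further labelled samples were not analysed here. All groups are untreated, and the groups after 0 hpf are the same hybrid. By their labels the 0 hpf eggs may be unfertilized, and thus O. mykiss only, or just fertilized, and which of these holds was not tested. There is no pure-species control at the later stages. A section is a bulk sample, in which fewer cells of a type and less RNA per cell cannot be told apart.

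Library totals ran from 5011274 to 9986001 counts. S. fontinalis genes took 22.5% and 24.03% of the counts in the section A libraries of 3 dpf and 0.927% to 1.08% in each of the other 18 libraries. Levels are given as CPM, counts divided by the library total of both species and edgeR's TMM factor and scaled to 1e6, and carry no correction for gene length, so they are compared between libraries and not between genes. The section labels were checked with 7 symbols known from the vegetal pole of fish eggs, whose 16 O. mykiss genes summed to 738 to 1411 CPM in section A libraries, against 3627 to 9881 CPM in section B libraries. Lists of markers for other cells found few genes in the table: fshr of 11 ovarian follicle symbols, urod of 9 blood symbols, ccdc39 and dnah1 of 9 sperm symbols, and fetub and tfa of 8 liver and yolk symbols.

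Maternal transcripts of the mitochondrial ribosome were present from the start, and 61 of the 67 O. mykiss genes had counts in every library. Their summed level in section A was 1172 ± 25.3 CPM at 0 hpf (SD, n = 2), 1149 ± 58.3 CPM at 1 hpf (n = 3), 1219 ± 36.9 CPM at 1 dpf (n = 3) and 929 ± 8.49 CPM at 3 dpf (n = 2). In section B it was 1076 ± 9.84 CPM at 0 hpf, 968 ± 43.5 CPM at 1 hpf, 962 ± 82.8 CPM at 1 dpf and 878 ± 35.1 CPM at 3 dpf, with the same numbers of replicates. Sections with the same replicate number were taken as 1 egg, which the labels do not state, and section A lay above section B in 10 of 10 such pairs, by 1.02 to 1.32 times. As a share of the counts on O. mykiss genes alone, these genes took 0.113% ± 0.000908 in section A at 3 dpf. This share leaves out the reads counted on S. fontinalis genes, but whether paternal reads were counted on O. mykiss genes was not tested. In section B the share was 0.0818% ± 0.00802 (SD, n = 2 each), and section A was again above section B in 10 of 10 pairs. In section A at 1 dpf it was 0.1298% ± 0.00489 (SD, n = 3), so this share too was lower at 3 dpf. The library totals behind the CPM of section A at 3 dpf include the paternal reads. The lower CPM there thus cannot be read as an equal fall among maternal transcripts. With the 20 S. fontinalis genes added, section A had 1228 ± 38.6 CPM at 1 dpf and 1108 ± 43.9 CPM at 3 dpf.

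The genes did not move as one. The plot of section differences by stage shows most of them spread within 1 log2 unit of 0, with a median above that of all O. mykiss genes at each stage. The median log2 difference of the 67 genes (section A over section B) was 0.25, 0.31, 0.47 and 0.22 from the first stage to the last. Over all 22724 O. mykiss genes tested it was -0.02, -0.03, -0.01 and -0.33 at the same stages. The large subunit genes had medians of 0.20, 0.33, 0.54 and 0.28, and the small subunit genes 0.29, 0.27, 0.43 and -0.09. With scaling on O. mykiss genes only, the medians at 3 dpf were 0.60 for the large and 0.23 for the small subunit. In all, 33 of the 67 genes (49.3%) passed the test between the sections at 1 or more stages, where 54.1% of all O. mykiss genes tested did, and 34 passed at none.

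**Figure D1:**
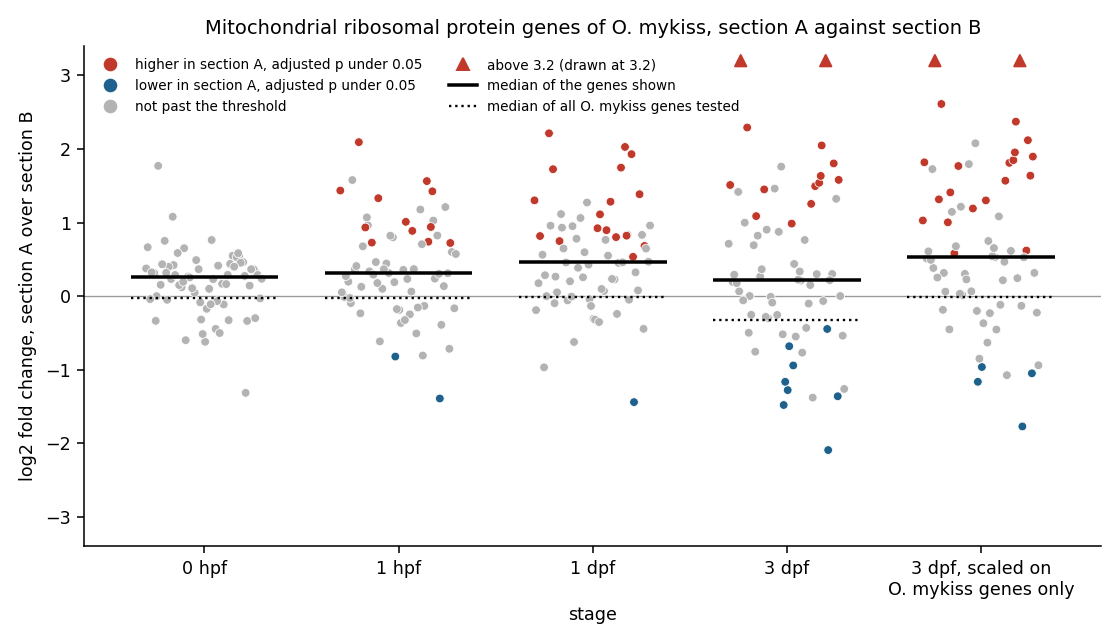
Log2 fold change of section A over section B (y axis) for the 67 O. mykiss mitochondrial ribosomal protein genes at each stage (x axis), with 3 dpf drawn again after scaling on O. mykiss genes only. Red and blue points passed the test in either direction, triangles lie beyond the axis, the solid bar is the median of the genes shown (0.25, 0.31, 0.47, 0.22 and 0.53) and the dotted bar that of all O. mykiss genes tested.

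In the egg at 0 hpf, 0 of the 67 genes differed between the sections past an adjusted p of 0.05 in edgeR's quasi-likelihood test, where 1.45% of all O. mykiss genes tested had a higher level in section A and 3.98% a lower one. Of the 67, 3 had an unadjusted p below 0.05, the lowest adjusted p was 0.242 (mrpl19), and DESeq2 called 1. A fit of only the 0 hpf groups called 3, namely mrpl39, mrps27 and LOC110509663 (mrpl51). The gene mrpl39, of a large subunit protein found in mitochondria only and the largest fold at the next stage, did not pass at 0 hpf in the fit of all groups, with 29.7 and 27.5 CPM in section A, against 16.1 and 17.9 CPM in section B.

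At 1 hpf 12 genes were higher in section A and 2 were lower, against 12.5% and 11.9% of all O. mykiss genes tested. The gene with the largest fold was mrpl39, with 26.2, 23.8 and 30.1 CPM in section A, against 2.7, 6.78 and 9.16 CPM in section B. Its groups did not overlap, and the log2 difference was 2.09 (SE 0.43, edgeR adjusted p = 0.00178). The next was mrpl22, which lines the tunnel through which the new protein leaves. It had 13.4, 13.96 and 8.18 CPM in section A, against 3.17 to 4.89 CPM in section B (log2 difference 1.56, edgeR adjusted p = 0.00637). It was followed by LOC110491321 (mrpl38), of a large subunit protein of mitochondria only. This gene had 31.3 ± 0.963 CPM in section A, against 11.5 ± 4.25 CPM in section B (SD, n = 3 each, log2 difference 1.44, edgeR adjusted p = 0.000811). The small subunit gene mrps9 had 17.1, 14.7 and 16.9 CPM in section A, against 8.58, 4.59 and 4.99 CPM in section B (1.42, adjusted p = 0.00148).

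The other genes higher in section A at 1 hpf were mrpl1, of the mobile stalk beside the tRNA exit site, mrpl10 and mrpl11, of the stalk and stalk base that receive translation factors, mrpl3, near the peptidyl transferase center, mrpl4, of the exit tunnel, mrpl19, LOC110507420 (mrpl28) and the small subunit gene mrps22, with log2 differences between 0.72 for mrpl10 and 1.33 for mrpl1. The genes lower in section A were LOC110509663, 1 of the copies of mrpl51, and LOC110525918, 1 of the copies of mrpl41. The calls of mrpl39, mrpl22, mrps9 and LOC110491321 held with each of the 6 libraries left out in turn, and each of the other 10 was lost in 1 to 6 of these fits, with adjusted p up to 0.202. The count of genes of both species called, 15, became 10 without section A replicate 1, 6 without section B replicate 1, 9 without section A replicate 2, 7 without section B replicate 2, 5 without section A replicate 3 and 9 without section B replicate 3.

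At 1 dpf 17 genes were higher in section A and 1 was lower, against 14.3% and 13.8% of all O. mykiss genes tested. The call with the lowest p was mrpl4, with 10.7, 12.8 and 11.98 CPM in section A, against 2.90, 2.38 and 3.42 CPM in section B. The groups were more than 3 times apart with no overlap (log2 difference 2.03, SE 0.30, edgeR adjusted p = 8.43e-05). The stalk gene mrpl10 had 17.3 ± 1.54 CPM in section A, against 10.8 ± 2.07 CPM in section B (SD, n = 3 each; log2 difference 0.68, adjusted p = 0.0457). The large subunit gene mrpl21, of bacterial descent, had 2.95 ± 1.44 CPM in section A, against 0.611 ± 0.248 CPM in section B (2.21, adjusted p = 0.0190). The gene mrpl30, also of bacterial descent, had 3.69 ± 0.633 CPM in section A, against 0.964 ± 0.170 CPM in section B (1.93, adjusted p = 0.0343).

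Of the 12 genes higher at 1 hpf, 9 were also called at 1 dpf, which is 52.9% of the 17: mrpl3, mrpl4, mrpl10, mrpl11, mrpl22, mrpl39, mrps9, LOC110491321 (mrpl38) and LOC110507420 (mrpl28). The same overlap over all O. mykiss genes tested is not given here, so this one cannot be read as particular to these genes. The other genes higher at 1 dpf were mrpl18, mrpl21, mrpl30, mrpl37 and mrps30 of the large subunit and mrps16, mrps18b and mrps34 of the small subunit. The small subunit gene mrps34, of a protein found in mitochondria only, had 23.1 ± 5.07 CPM in section A, against 13.3 ± 2.60 CPM in section B (0.80, adjusted p = 0.0269). The call of mrpl3 was not made with O. mykiss scaling (adjusted p = 0.0519). The calls of LOC110491321, mrpl22, mrpl37, mrpl39, mrpl4 and mrps30 held with each of the 6 libraries left out, and the other 12 were lost in 2 to 6 fits, with adjusted p up to 0.209. The count of 18 became 7 without section A replicate 1, 8 without section B replicate 1 and 10 without section A replicate 2, and 12 to 14 without 1 of the other 3. A fit of only the 1 dpf groups called 6 of the 18, namely mrpl4, mrpl22, mrpl30, mrpl37, mrpl39 and LOC110491321, and none of the other 12.

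At 3 dpf 14 O. mykiss genes were higher in section A and 8 were lower, against 15.2% and 27.2% of all O. mykiss genes tested. Paternal reads appear in section A at this stage, and the scaling bears on the split: the median log2 difference over all O. mykiss genes was -0.33. With scaling factors from O. mykiss genes alone, 21 genes were higher and 4 lower, against 20.8% and 18.4%, and the median of the 67 genes was 0.53. All 14 and these 4 were called under both scalings, and mrpl51, mrps18c, mrps30 and mrps5 were lower with factors from all genes only. The lower calls under both were LOC110509663 (mrpl51), LOC110525918 (mrpl41), mrpl20 and mrps36. Of the 8 lower calls, those of LOC110525918 and mrps36 held with each of the 4 libraries left out, and that of mrpl20 was lost without section B replicate 1 (adjusted p = 0.0626) or section A replicate 2 (0.0511). A fit of only the 3 dpf groups called 7 of the 22 O. mykiss genes, namely mrpl10, mrpl39, mrpl4, mrpl54 and mrps9 as higher and LOC110509663 and mrps36 as lower. Without section A replicate 1 the count of genes of both species was 24, against 39 with all libraries.

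Higher in section A at 3 dpf, also with each of the 4 libraries left out, were mrpl10, mrpl30, mrpl39, mrpl4, mrpl54 and mrps9. Of these, mrpl54 passed the filter on low counts only through the section A libraries of 3 dpf, so its call had to follow. The gene mrpl10 had 16.7 and 18.5 CPM in section A, against 4.56 and 7.16 CPM in section B (log2 difference 1.58, SE 0.30, edgeR adjusted p = 0.000374). The gene mrpl39 had 19.7 and 23.9 CPM in section A, against 1.64 and 7.16 CPM in section B (2.29, SE 0.56, adjusted p = 0.00237). The gene mrpl30 had 33 counts in the section A libraries and 1 in the section B libraries, a ratio of 37.4 with a 95% interval for counting error of 6.25 to 1520.

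At 1 hpf, 1 dpf and 3 dpf alike, 5 of the 67 genes (7.46%) were higher in section A, where 5.47% of all O. mykiss genes tested were: mrpl10, mrpl22, mrpl39, mrpl4 and mrps9. Of them mrpl22 had 10.95 and 11.5 CPM in section A at 3 dpf, against 3.28 and 4.66 CPM in section B, and this call was lost without section B replicate 1 (adjusted p = 0.0948). In section A mrps9 had 17.4 ± 3.90, 16.2 ± 1.36, 14.2 ± 0.207 and 16.6 ± 2.46 CPM from 0 hpf to 3 dpf. In section B the same gene had 11.6 ± 2.50, 6.05 ± 2.19, 8.08 ± 1.56 and 5.34 ± 1.63 CPM. The changes between stages within section B did not pass the test, as given further on.

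LOC110509663 was the single gene of the 67 lower in section A at all 3 of these stages, where 8.75% of all O. mykiss genes tested were. It is 1 of the 2 O. mykiss genes named mrpl51, a large subunit protein of mitochondria only. At 3 dpf it had 7.06 and 2.73 CPM in section A, against 20.8 and 21.3 CPM in section B, with no overlap (log2 difference -2.09, SE 0.58, adjusted p = 0.00519). At 1 hpf the values were 6.25, 7.59 and 4.77 CPM in section A, against 12.7, 16.5 and 19.7 CPM in section B (-1.39, adjusted p = 0.0361). At 1 dpf the groups overlapped, because section B replicate 3 had 6.27 CPM beside 18.6 and 28.3 CPM in the other two, and section A had 4.93, 8.93 and 5.69 CPM (-1.44, adjusted p = 0.0280). Its calls were lost in 5 of 6 fits with 1 library left out at 1 hpf, in 4 of 6 at 1 dpf, and at 3 dpf without section A replicate 2 (adjusted p = 0.0653).

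Its partner, the gene named mrpl51 in the table, had 5.01 and 3.78 CPM in section A at 3 dpf, against 11.3 and 8.49 CPM in section B (-1.16, adjusted p = 0.0425, and 0.138 with O. mykiss scaling). This call was also lost without section A replicate 1 (adjusted p = 0.0715), section B replicate 1 (0.182) or section A replicate 2 (0.179). Of the counts on both copies, at 3 dpf LOC110509663 took 50.2% ± 11.7 in section A, against 68.1% ± 4.76 in section B (SD, n = 2 each). How reads that match both copies of such a gene were assigned is not given in the sources used here, so the split between copies is uncertain.

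**Figure D2:**
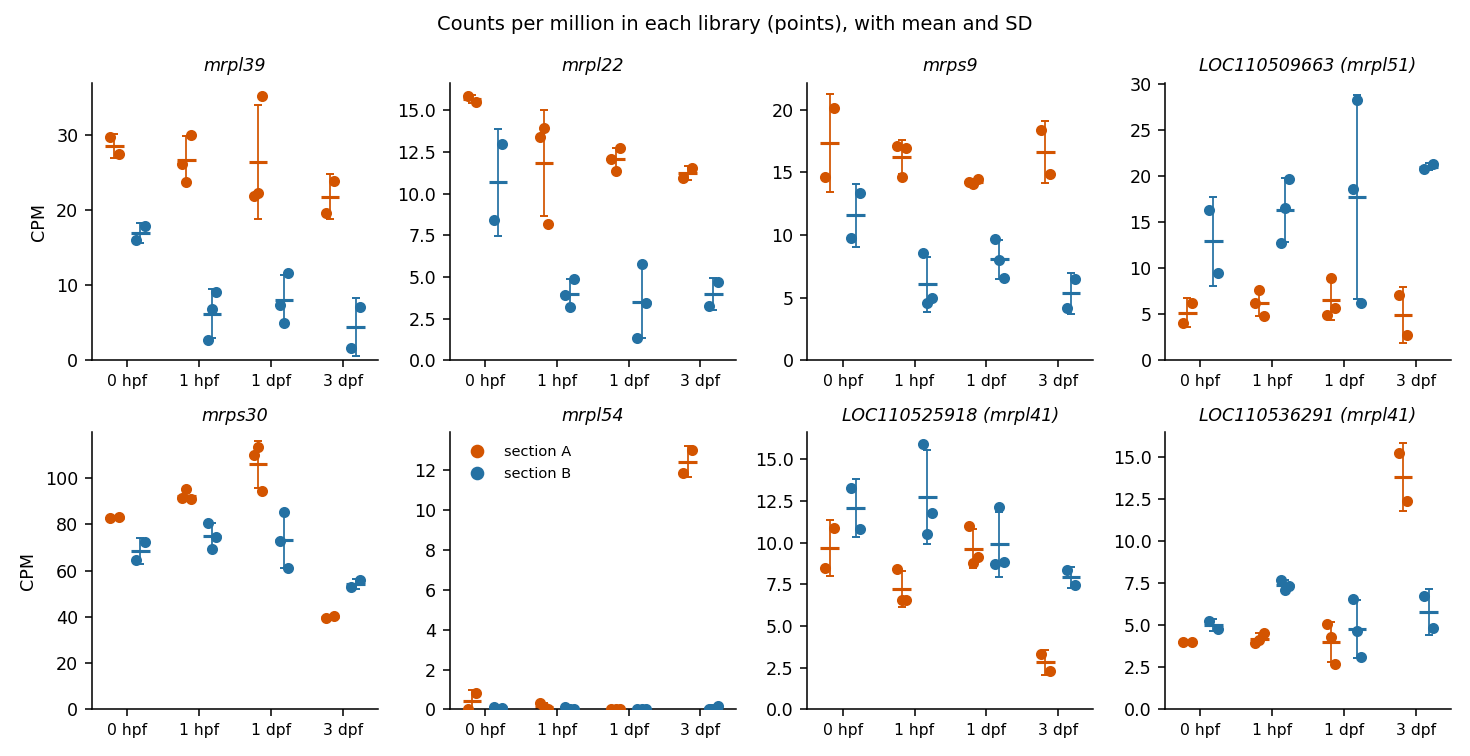
Level in CPM (y axis, starting at 0) of 8 O. mykiss genes in every library (points) by stage (x axis), section A in orange and section B in blue, with mean and SD. The first 3 panels lie above in section A, the means of LOC110509663 (mrpl51) lie above in section B, and mrps30, mrpl54 and the copies of mrpl41 show the changes in section A at 3 dpf.

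Between consecutive stages, all calls of edgeR's test came from section A at 3 dpf, and DESeq2 made 5 more in section B, as given further on. Against 1 dpf, 3 O. mykiss genes were higher and 16 lower, where 11.7% and 23.3% of all O. mykiss genes tested were called. With O. mykiss scaling 4 were higher and 9 lower, against 17.1% and 12.3%, and the median log2 change of the 67 genes was -0.08, against -0.40 with factors from all genes. All 9 of these lower genes are among the 16: LOC110525918 (mrpl41), LOC110529698 (mrps18a), mrpl20, mrpl45, mrpl9, mrps18c, mrps25, mrps30 and mrps36. A fit of only the section A groups of 1 dpf and 3 dpf called 13 O. mykiss genes, 2 higher and 11 lower. Of these, 12 are among the 19 called in the fit of all groups, and mrps6 was added.

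The lower gene with the lowest p was mrps30, which despite its name is a large subunit protein of mitochondria only. It had 39.4 and 40.5 CPM at 3 dpf in section A, against 110, 113 and 94.5 CPM at 1 dpf, with no overlap. The log2 change was -1.41 (SE 0.16, edgeR adjusted p = 3.26e-06), and -1.09 with O. mykiss scaling (adjusted p = 3.09e-05). In section B it had 52.8 and 56.0 CPM at 3 dpf, against 72.7, 85.2 and 61.4 CPM at 1 dpf, and this did not pass.

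Further genes were lower in section A at 3 dpf than at 1 dpf under both scalings. The bacterial-type large subunit gene mrpl20 had 9.10 and 7.34 CPM at 3 dpf, against 25.1, 26.0 and 13.4 CPM at 1 dpf (log2 change -1.38, adjusted p = 0.00231). The gene mrpl45, whose protein in mammals holds the ribosome to the inner membrane near the tunnel exit, had 4.64 and 7.34 CPM, against 12.7, 13.2 and 17.4 CPM (-1.27, adjusted p = 0.00268, and 0.0528 without section A 3 dpf replicate 1). The gene mrps25 was low throughout, with 1.11 and 0.630 CPM, against 2.67, 4.04 and 4.82 CPM (-2.11, adjusted p = 0.0167, and 0.119 without section A 3 dpf replicate 2). In mammals the mrps36 protein is known as a part of the oxoglutarate dehydrogenase complex rather than of the ribosome, and its gene had 12.6 and 13.4 CPM, against 26.9, 36.2 and 20.04 CPM (-1.09, adjusted p = 0.00631, and 0.0506 without section A 3 dpf replicate 1).

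The genes mrps5 and mrpl58 were lower with factors from all genes only. For the small subunit gene mrps5 the log2 change was -0.77 (adjusted p = 0.0157, and 0.146 with O. mykiss scaling), lost without section A 1 dpf replicate 3 (0.0870) or section A 3 dpf replicate 1 (0.197). For mrpl58, a peptidyl-tRNA hydrolase that frees stalled ribosomes, it was -1.20 (adjusted p = 0.0472, and 0.153), lost without section A 1 dpf replicate 1 (0.0802) or 2 (0.111) or section A 3 dpf replicate 2 (0.264). The decoding gene mrps12 had 3.56 ± 0.308 CPM at 3 dpf, against 6.45 ± 0.412 CPM at 1 dpf, and did not pass. The gene mrpl12, whose protein is also known to bind the mitochondrial RNA polymerase, had 166 ± 30.5 CPM at 3 dpf, against 165 ± 24.6 CPM at 1 dpf (SD, n = 2 and 3).

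The 3 genes that were higher in section A at 3 dpf were mrpl54, LOC110536291 (mrpl41) and LOC110507901 (mrps23). The gene mrpl54, of a large subunit protein found in mitochondria only, had 64 and 62 counts in the section A libraries at 3 dpf and 16 counts in the other 18 libraries together, 11 of which had 0. In CPM this was 11.9 and 13.01 in section A at 3 dpf. Against the 3 section A libraries of 1 dpf, all at 0, the level was at least 32.2-fold higher, with a floor of 3 counts per library (adjusted p = 0.000377). Against section B at 3 dpf, with 1 count, the ratio was 143 with a counting interval of 25.1 to 5678 (adjusted p = 0.00367). Both calls held with each library left out, but the gene passed the filter on low counts only through the section A libraries of 3 dpf, so that a difference there had to follow. The same libraries are the ones in which S. fontinalis genes take 22.5% and 24.03% of the counts, and no S. fontinalis gene named mrpl54 is among the 20, and the part of paternal reads in the mrpl54 counts was not tested.

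The copies of mrpl41, a large subunit protein of mitochondria only, went in opposite directions. LOC110536291 had 15.2 and 12.4 CPM in section A at 3 dpf, against 5.07, 4.28 and 2.72 CPM at 1 dpf (log2 change 1.78, SE 0.37, adjusted p = 0.000683). LOC110525918 had 3.34 and 2.31 CPM at 3 dpf, against 10.98, 8.80 and 9.15 CPM at 1 dpf (-1.76, SE 0.35, adjusted p = 0.000454). Neither pair of groups overlapped, and both calls held with each of the 5 libraries left out and under O. mykiss scaling.

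Of the counts on the pair, LOC110536291 took 82.0% (95% Clopper-Pearson interval 73.1% to 89.0%) and 84.3% (73.6% to 91.9%) in section A at 3 dpf. In the other 18 libraries its share lay between 22.9% and 44.6%. Between the sections at 3 dpf, LOC110536291 was higher in section A (log2 difference 1.25, adjusted p = 0.0151) and LOC110525918 lower (-1.48, adjusted p = 0.00282). The first of these calls was lost without section A replicate 1 (adjusted p = 0.0773) and without section B replicate 2 (0.102), and the second was kept in all 4 fits. Reads shared by the copies, or by the S. fontinalis gene of the same name, make these values uncertain in the same way as for mrpl51.

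The small subunit gene LOC110507901 (mrps23) had 23.02 and 19.9 CPM at 3 dpf in section A, against 7.32, 7.58 and 16.2 CPM at 1 dpf (1.05, adjusted p = 0.0360). This call was lost in 4 of 5 fits with 1 library left out, namely without section A 1 dpf replicate 1 (adjusted p = 0.128) or 2 (0.122) and without section A 3 dpf replicate 1 (0.147) or 2 (0.0682).

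In the other 5 comparisons of consecutive stages 0 genes of either species passed edgeR's test, where 0.0044% of all O. mykiss genes tested were lower in section B at 1 hpf than at 0 hpf, 0.0088% of them were lower and 0.0102% of all S. fontinalis genes higher in section B at 1 dpf than at 1 hpf, and 0.0% were called in the others. An unadjusted p below 0.05 was reached in section A by 2 O. mykiss genes for 1 hpf against 0 hpf and by 0 for 1 dpf against 1 hpf. In section B it was reached by 8, 3 and 13 for the 3 consecutive steps. Among the S. fontinalis genes it was reached by 1 for 1 dpf against 1 hpf in section A, by 2 for that step in section B and by 3 for 3 dpf against 1 dpf in section B. DESeq2 called 4 genes lower in section B at 1 hpf than at 0 hpf and 1 lower at 3 dpf than at 1 dpf in section B, and 0 in the other 3 comparisons.

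The difference between the sections itself changed between 1 dpf and 3 dpf for 3 O. mykiss genes, all toward section B, where 4.73% of all O. mykiss genes tested changed toward section A and 10.9% toward section B. The change with the lowest p was that of mrps30, which at 3 dpf had 39.9 ± 0.804 CPM in section A, against 54.4 ± 2.21 CPM in section B (SD, n = 2 each). At 1 dpf it was higher in section A, with 106 ± 10.03 CPM, against 73.1 ± 11.9 CPM in section B (n = 3 each). The lower level in section A at 3 dpf passed (log2 difference -0.45, adjusted p = 0.0354), but not with O. mykiss scaling (-0.13, adjusted p = 0.552) nor without section A replicate 1 (0.115) or 2 (0.0831) or section B replicate 1 (0.0693) or 2 (0.115). The change of the log2 difference was -0.98 (SE 0.22, adjusted p = 0.00516) and -0.66 with O. mykiss scaling (adjusted p = 0.0432). For LOC110525918 (mrpl41) it was -1.44 (SE 0.46, adjusted p = 0.0332) and for mrpl45 -1.32 (SE 0.44, adjusted p = 0.0393), and neither passed with O. mykiss scaling (adjusted p = 0.106 and 0.126) nor in 6 and 5 of the 10 fits with 1 library left out. That scaling called 3 genes toward section A in their place, namely LOC110536291 (mrpl41), mrpl10 and mrpl43. A fit of only the 1 dpf and 3 dpf groups called 0 O. mykiss genes. With the replicate number shared by the sections as a block, 9 genes of both species passed in place of 4, and without section B 3 dpf replicate 2 only 2. In the 2 earlier steps 0 genes of either species passed (edgeR; unadjusted p below 0.05 for 1 and 2 O. mykiss genes; 0 by DESeq2).

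Most paternal genes of the mitochondrial ribosome had far more reads in section A at 3 dpf than in the other groups. Of the 20 S. fontinalis genes 19 could be tested, since mrps14 did not pass the filter on low counts. At 3 dpf 17 were higher in section A than in section B, where 86.0% of all S. fontinalis genes tested were, and 0 were lower, where 0.757% were. Against section A at 1 dpf 17 were higher and 0 lower, where 88.7% and 0.245% were. These shares are near the background, so the paternal genes of the mitochondrial ribosome were called about as often as paternal genes at large. The calls are a description, since 15 of the 19 genes passed the filter on low counts only through the section A libraries of 3 dpf, in which they are high, as did 62.9% of all S. fontinalis genes tested. Of the 4 that passed it without these libraries, LOC129832817 (mrpl12) and mrpl16 were higher in section A at 3 dpf in both comparisons, and mrps30 and mrps36 were called in neither. The paternal mrpl16 had 9.28 and 14.3 CPM in section A at 3 dpf, against 0.182 and 0.167 CPM in section B (adjusted p = 0.000554). The summed level of the 20 genes was 179 ± 35.4 CPM in section A at 3 dpf, against 11.8 ± 3.09 CPM in section B (SD, n = 2 each), and the group means elsewhere lay between 5.32 and 11.5 CPM.

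**Figure D3:**
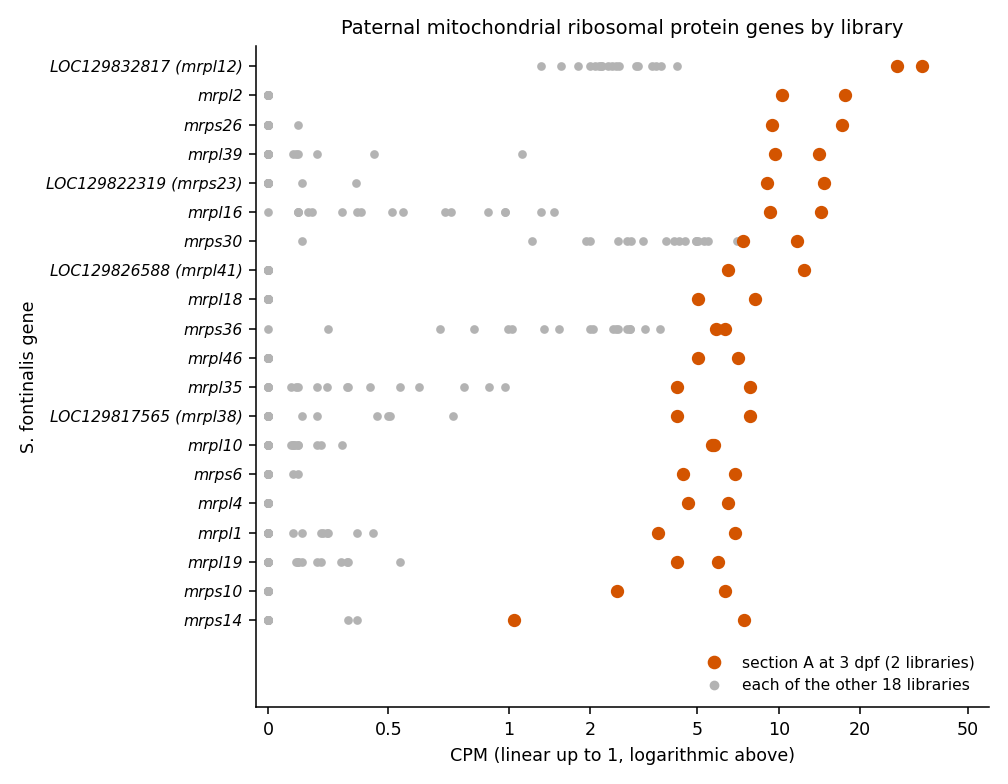
Level in CPM (x axis, linear up to 1 and logarithmic above) of the 20 S. fontinalis mitochondrial ribosomal protein genes (y axis), in the 2 section A libraries of 3 dpf (orange) and in each of the other 18 libraries (grey). The orange points lie to the right of the grey ones for every gene, and mrps30, mrps36 and LOC129832817 (mrpl12) have grey points well above 0.

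The paternal mrpl2, of the peptidyl transferase center, had 17.6 and 10.3 CPM in section A at 3 dpf, against 0 counts in section B. This was at least 26.7-fold higher, and at least 36.1-fold higher than in section A at 1 dpf. The small subunit gene mrps26 had 17.1 and 9.44 CPM, against 0 counts in section B. In all, 12 of the 20 genes had 0 counts in section B at 3 dpf, with lower bounds of 8.44-fold to 26.7-fold, 3 had 1 to 3 counts and 5 had more. With each of the 4 libraries left out, 10 of the 17 paternal calls between the sections were kept, and with each of the 5, 13 of the 17 between the stages. The other 4 between the stages, mrpl1, mrpl35, mrpl39 and mrps10, were lost without section A 3 dpf replicate 1 (adjusted p up to 0.0559). All these fits used the same filtered genes. They are thus no separate test for the 15 genes that passed the filter only through section A at 3 dpf.

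LOC129832817 (mrpl12) was the paternal gene with the most counts, with 27.5 and 33.99 CPM in section A at 3 dpf, against 4.19 and 2.50 CPM in section B. Its section difference changed between 1 dpf and 3 dpf by 3.15 on the log2 scale (SE 0.64, adjusted p = 0.00274), and it was the single paternal member called in that comparison, where 30.9% of all S. fontinalis genes tested changed toward section A. The paternal mrps30 and mrps36, the pair not called at 3 dpf, had counts in nearly all libraries: mrps30 had 11.7 and 7.34 CPM in section A at 3 dpf and up to 6.98 CPM elsewhere. Counts of this kind were present in eggs at 0 hpf. There S. fontinalis genes took 6.22% of the mrps30 counts, 4.48% of the mrpl35 counts and 3.95% of the mrps36 counts. How reads that match genes of both species were assigned is not given in the sources used here. The origin of these egg counts was not tested, and they cannot be read as paternal transcripts.

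At 0 hpf and 1 dpf 0 paternal genes were called between the sections (edgeR; unadjusted p below 0.05 for 0 and 1; 0 by DESeq2), where 0.0716% and 3.16% of all S. fontinalis genes tested were higher in section A and 0.348% and 2.46% lower. The single paternal call of the earlier stages was LOC129817565 (mrpl38) at 1 hpf, with 7, 5 and 4 counts in section A, against 0 in section B, at least 1.73-fold higher (adjusted p = 0.0324), where 2.08% of all S. fontinalis genes tested were higher and 1.94% lower. The call was lost in 6 of 6 fits with 1 library left out (adjusted p up to 0.0822) and with the replicate number shared by the sections as a block (0.0970). The O. mykiss gene of the same name was higher in section A at that stage, as given above, with 280, 320 and 270 counts in the same libraries. The origin of the 7, 5 and 4 counts of LOC129817565 was not tested, and they cannot be read as paternal transcripts.

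For the 19 proteins with a gene from both species, S. fontinalis genes took 30.1% (95% Clopper-Pearson interval 28.6% to 31.6%) and 23.8% (22.3% to 25.4%) of the counts in section A at 3 dpf. The replicates differed by more than counting error. In the other 18 libraries the share was 0.395% to 3.29%. Over all genes of the table whose symbol occurs in both species, the share was 28.1% and 26.6% in section A at 3 dpf, against 1.35% ± 0.0393 in the other libraries (SD, n = 18). The mean of the 19 proteins, 26.9% ± 4.43, lay within its spread of this mean, 27.4% ± 1.04 (SD, n = 2 each). With genes of 1 species included as well, section A at 3 dpf had a share of 16.1% ± 2.56 for the 87 genes. Over all genes of the table it was 23.2% ± 1.12 (SD, n = 2 each). The mitochondrial ribosomal genes had the lower mean in both comparisons, and the gap depended on which genes entered. In the first comparison replicate 1 lay above (30.1% against 28.1%) and replicate 2 below (23.8% against 26.6%). In the second the sets were unlike, since S. fontinalis genes were 20 of the 87 and 9992 of all 32765 genes. Without mrpl12, the share for the other proteins with a gene from both species was 31.7% ± 4.69 (SD, n = 2), above the 27.4%.

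By protein the paternal share in section A at 3 dpf ran from 15.7% for mrpl12 to 58.6% for mrps26, as the mean of 2 libraries. The small subunit gene mrps26 had 64.3% (interval 55.9% to 72.2%) and 52.9% (41.8% to 63.9%), and it was the single protein with a paternal share over 50% in both libraries. For mrpl12, by contrast, it was 16.02% (13.7% to 18.5%) and 15.4% (13.2% to 17.7%). The intervals of these proteins did not overlap, but the proteins were picked as the extremes of the list and the intervals cover counting error only. For mrps14 the replicates were far apart, with 62.5% and 25.0% of 64 and 20 counts. All reads of a protein's O. mykiss gene entered these shares, whether left from the egg or newly made, which the counts cannot separate.

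**Figure D4:**
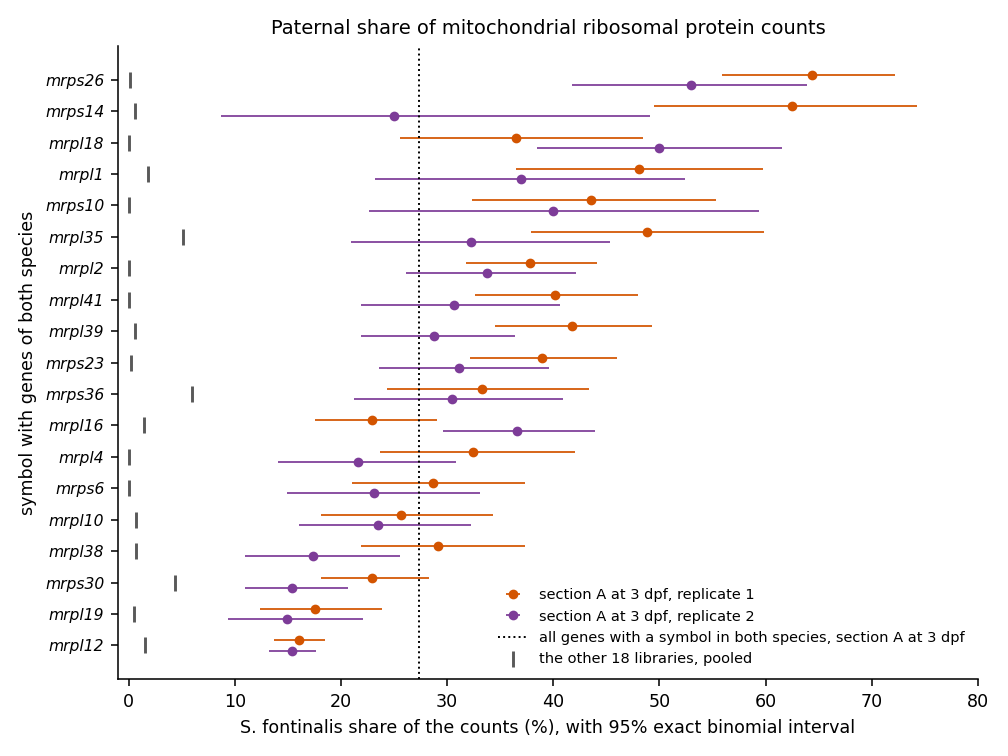
S. fontinalis share of the counts in percent (x axis) for the 19 proteins with genes of both species (y axis), in the 2 section A libraries of 3 dpf with 95% exact binomial intervals, and pooled over the other 18 libraries (ticks). Mean shares run from 15.7% for mrpl12 to 58.6% for mrps26, and the dotted line is the mean share over all genes whose symbol occurs in both species, 27.4%.

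Other genes of mitochondrial translation were read from 5 lists: ribosomal proteins with other names, translation factors, assembly factors, aminoacyl-tRNA synthetases, and genes for copying and transcribing the mitochondrial genome. Of their 71 O. mykiss genes tested together, section A was higher for 1, 10, 12 and 16 and lower for 0, 1, 0 and 5 at 0 hpf, 1 hpf, 1 dpf and 3 dpf. Of all O. mykiss genes tested, 1.45%, 12.5%, 14.3% and 15.2% were higher and 3.98%, 11.9%, 13.8% and 27.2% lower at these stages. The median log2 differences of the 71 genes were 0.07, 0.28, 0.38 and 0.31. In section A at 3 dpf against 1 dpf 7 were higher and 12 lower, where 11.7% and 23.3% of all O. mykiss genes tested were, with a median of -0.21.

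With O. mykiss scaling the split at 3 dpf was 27 higher and 3 lower in section A, against 20.8% and 18.4% of all O. mykiss genes. Against 1 dpf it was 10 and 6 with that scaling, where 17.1% and 12.3% of all O. mykiss genes were called, and the median was 0.10, so that its sign depended on the scaling.

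The gene ptcd3, of a small subunit protein that binds RNA, had 28.2 ± 3.97 CPM in section A at 3 dpf, against 6.37 ± 2.06 CPM in section B (SD, n = 2 each; log2 difference 2.14, adjusted p = 3.89e-05). The gene lrpprc, whose protein keeps mitochondrial mRNAs stable, had 99.2 ± 41.03 CPM in section A at 3 dpf, against 9.01 ± 6.81 CPM in section B (3.45, adjusted p = 8.69e-05). The release factor gene mtrf1l was the single gene of these lists called at 0 hpf, with 267 ± 44.4 CPM in section A, against 124 ± 28.3 CPM in section B (1.11, adjusted p = 0.00774). Of the assembly factors, the RNA helicase gene dhx30 was higher in section A at 1 hpf, 1 dpf and 3 dpf, with 85.3 ± 10.6 CPM in section A at 3 dpf, against 21.7 ± 2.93 CPM in section B (1.97, adjusted p = 1.33e-05). Lower in section A at 3 dpf were the initiation factor mtif3 (-1.33) and the assembly factors mrm1 (-0.89) and noa1 (-0.78), also with O. mykiss scaling. The elongation factor tsfm (-0.96) and the assembly factor rbfa (-0.72) passed with factors from all genes only (adjusted p = 0.0751 and 0.188 with O. mykiss scaling).

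Genes of the cytosolic ribosome are set beside the mitochondrial ones as a description. Of 131 O. mykiss genes for cytosolic ribosomal proteins, section A was higher for 50, 60 and 123 and lower for 1, 1 and 0 at 1 hpf, 1 dpf and 3 dpf. Of all O. mykiss genes tested, 12.5%, 14.3% and 15.2% were higher and 11.9%, 13.8% and 27.2% lower at these stages. In section A at 3 dpf against 1 dpf 106 were higher and 0 lower with a median log2 change of 1.95, beside 3 higher and 16 lower with a median of -0.40 for the mitochondrial ones. Of all O. mykiss genes tested, 11.7% were higher and 23.3% lower in that comparison. The 71 oxidative phosphorylation genes, whose complexes hold the proteins that the mitochondrial ribosome makes, had 34, 36 and 27 higher in section A and 1, 2 and 1 lower at the same stages. In section A at 3 dpf against 1 dpf 1 of them was higher and 13 lower, with a median of -0.28, and with O. mykiss scaling 4 and 9, with a median of 0.04. That scaling gave 115 higher and 0 lower cytosolic genes, with a median of 2.27, where 17.1% and 12.3% of all O. mykiss genes tested were called. The liver and yolk markers fetub and tfa summed to 69.7 and 134 CPM in section A at 3 dpf, against 22.96 and 28.7 CPM in section B. The follicle marker fshr had 2.31 and 5.94 CPM in section A at 3 dpf and was at 0 in section B. At 1 hpf it reached 3.74 CPM in section A and 3.06 CPM in section B. The blood list's urod had 11.3 and 14.7 CPM in section A at 3 dpf, against 2.19 and 3.66 CPM in section B. At 0 hpf it already had 14.8 and 15.1 CPM, against 8.57 and 9.67 CPM. The sperm list's ccdc39 and dnah1 summed to 7.80 and 12.8 CPM in section A at 3 dpf, against 5.10 and 13.5 CPM in section B. The part of other cells in the 3 dpf results was not tested.

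**Figure D5:**
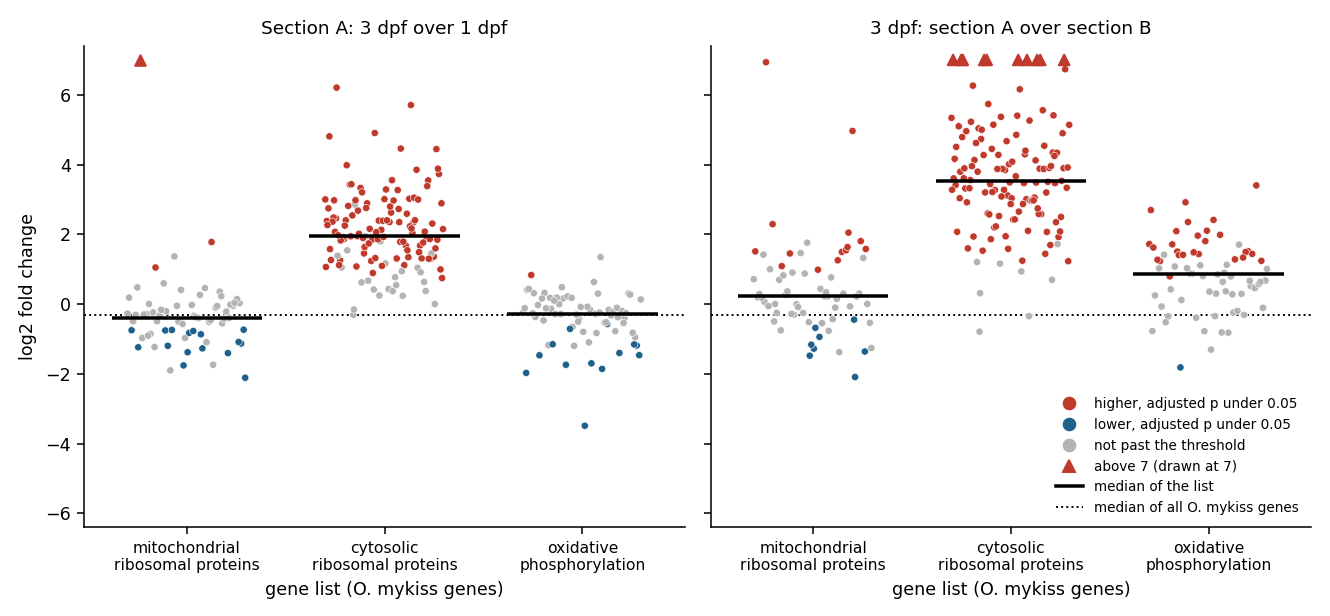
Log2 fold change (y axis) of O. mykiss genes of 3 lists (x axis) in section A at 3 dpf over 1 dpf (left) and in section A over section B at 3 dpf (right). Red and blue points passed the test, solid bars are list medians (left -0.40, 1.95 and -0.28) and the dotted line is the median of all O. mykiss genes (-0.33 in both), and the cytosolic median lies above 0 on the left. With O. mykiss scaling the oxidative phosphorylation median on the left is 0.04.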

How the data were processed

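RNA was measured in 20 libraries of sections of eggs and embryos at 4 stages. Per the labels' protocols, libraries were strand-specific and rRNA had been removed. Named in the submitters' processing notes are HTSeq 2.0.4, STAR 2.7.11, fastp 0.23.4 and also DESeq2. The genome builds, the strand setting and the handling of reads that match several genes are not given in the sources used here. The authors deposited raw read counts per gene, and the lowest maximum of a gene over the libraries is 31 counts. The authors' deposited signal tables, counts divided by a factor per library, were not used.

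From the counts, edgeR 4.0.16 (R 4.3.3) fitted a quasi-likelihood model to 32502 genes that passed its filter on low counts, with TMM factors and 1 term for each combination of section and stage over all 20 libraries. It gave 13 contrasts, called at a Benjamini-Hochberg adjusted p under 0.05: 4 between sections, 6 between consecutive stages within a section and 3 changes of the section difference. Library totals of 5011274 to 9986001 counts set the precision. Intervals are 95% Clopper-Pearson intervals, and these and the floor of 3 counts per library cover counting error only, as reads carry no molecular identifiers. The script was tested on simulated data. Groups hold 2 or 3 biological replicates, of which the labels give neither the parents nor the number of eggs, and share the spread of all libraries.

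Members and lists were chosen with earlier results of these data known. Symbols of 7 O. mykiss and 4 S. fontinalis members come from the ortholog table, 2 of the latter through its O. mykiss entries only. Named genes were drawn from those with an adjusted p under 0.05 whose groups do not overlap, the 10 with the largest fold per direction and section contrast (5 per stage contrast and for S. fontinalis), members with a defined role, and copies that moved in opposite directions. Not every gene picked by this rule is named in each contrast. Members listed to complete a count, mrpl39 at 0 hpf, mrps9 over the stages, mrps36 between stages, the paternal mrps14, mrps30, mrps36 and mrpl35, and some pathway genes were named after their values were seen. Sections A and B share replicate numbers, taken as 1 egg each although the labels do not say so: their deviations correlated at 0.431 to 0.744 at 1 hpf, 1 dpf and 3 dpf and at -0.175 at 0 hpf. Alternatives were RLE factors, library totals, factors from O. mykiss genes, no filter, DESeq2 1.42.0, a fit of only the groups compared, that egg, or the number across stages, as a block, and leaving out each library. No pair of libraries held identical counts.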

Additional observations from a re-analysis of the deposited data

Results flagged for a closer look

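Between 1 dpf and 3 dpf the difference between section A and section B changed for 4 genes by a test of the change itself. In 3 O. mykiss genes it moved toward section B: LOC110525918 (mrpl41) by -1.44 on the log2 scale, mrpl45 by -1.32 and mrps30 by -0.98, where 10.9% of all O. mykiss genes tested moved toward section B and 4.73% toward section A. With O. mykiss scaling the calls of LOC110525918 and mrpl45 were lost (adjusted p = 0.106 and 0.126), mrps30 stayed called (0.0432), and LOC110536291 (mrpl41), mrpl10 and mrpl43 were called toward section A. A fit of only the groups compared called 0 O. mykiss genes. In 1 S. fontinalis gene, LOC129832817 (mrpl12), it moved toward section A by 3.15, where 30.9% of all S. fontinalis genes tested did. The calls of mrps30 and LOC129832817 held with each of the 10 libraries left out, whereas that of LOC110525918 was lost in 6 of 10 and that of mrpl45 in 5 of 10. Section A at 3 dpf is also the group in which S. fontinalis genes take 22.5% and 24.03% of the counts.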

How the results depend on the processing

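The counts called, of both species, moved by over 1.5 times as follows. DESeq2 called 1 gene at 0 hpf in place of 0, 26 at 1 hpf in place of 15, 4 in section B at 1 hpf against 0 hpf and 1 in section B at 3 dpf against 1 dpf in place of 0, and 9 for the change of the section difference at 3 dpf in place of 4. A fit of only the groups compared gave 3 at 0 hpf, 6 at 1 dpf in place of 18, 24 at 3 dpf in place of 39 and 1 for the change. The number shared by sections A and B as a replicate block gave 9 for that change and moved no other count by that much. It gave 0, 20, 23 and 42 between the sections from 0 hpf to 3 dpf. Among named genes it ended the call of S. fontinalis LOC129817565 at 1 hpf (adjusted p = 0.0970) and added mrps34 at 1 hpf and mrps22 at 1 dpf. The 0 hpf sections with crossed numbers, chosen after seeing the data, gave 1 gene in place of 0. Between stages the numbers are only shared, with correlations of -0.52 to 0.54, and the block on them gave 37 in section A at 3 dpf against 1 dpf in place of 36, without mrpl58 and mrps5, and 0 elsewhere. With 1 library left out the counts were 5 to 10 at 1 hpf, 7 to 14 at 1 dpf, 24 to 35 between sections and 27 to 38 between stages in section A at 3 dpf, and 2 to 6 for the change, and 0 stayed 0 elsewhere. Of the O. mykiss genes at 3 dpf, 14 were higher in section A and 8 lower, with RLE factors 20 and 5, with DESeq2 24 and 5, and with library totals 13 and 8. Against 1 dpf it was 3 and 16, with RLE factors 3 and 9, with DESeq2 5 and 12, and with library totals 2 and 23. The shares over all O. mykiss genes move with the scaling too. Between the sections they were 15.2% higher and 27.2% lower, and 20.8% and 18.4% with O. mykiss factors. Against 1 dpf they were 11.7% and 23.3%, and 17.1% and 12.3%. For RLE factors, DESeq2 and library totals they are not given here, so these moves cannot be read as particular to the members. The mean paternal share in section A at 3 dpf was 26.9%, 16.1% over all members and 31.7% without mrpl12. Small differences of members that were not called could change sign with the scaling, as for mrps22 in section A at 3 dpf against 1 dpf. No member gene named and called in a contrast changed direction there under the alternatives in which it was refitted. Medians did: in section A at 3 dpf against 1 dpf that of the 71 pathway genes was -0.21, with O. mykiss factors 0.10 and with RLE factors 0.07, and that of the oxidative phosphorylation genes -0.28, 0.04 and 0.01. For the change of the section difference, O. mykiss factors called 3 O. mykiss genes toward section A and 1 toward section B, in place of 0 and 3. The cause of each move was not tested. Groups of 2 or 3 replicates, and genes with few counts, limit what could be called.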
